A study of Mus musculus with 40 samples.

Results

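The metabotropic and kainate glutamate receptors were followed across 4 groups of mouse cortex. The members were the RefSeq transcripts in the deposited table that carry the symbols Grm2, Grm3, Grm5, Grm7, Grik2, Grik3 and Grik5. The symbols were chosen by name, with earlier results of these data known. Of these 7 symbols, 6 were found, with 8 of the 6831 transcripts and 6 of the 5849 gene symbols in the table. Grm2, a presynaptic receptor that lowers glutamate release, had 0 transcripts there, as had Grm4, Grm6, Grm8, Grik1 and Grik4, and the table held abundant transcripts only, with a lowest mean of 549.2 normalised read counts, so this does not show that those genes were silent.

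The mice were male C57BL/6 animals (C57Bl/6J in the methods of the study) aged 12 weeks, and RNA was taken from dissected cortex 24 h after repeated sessions had ended. In these sessions mice received high-frequency head impact (HF-HI), that is, many mild blows to the head, or sham handling under anaesthesia without blows. Saline or memantine, a channel blocker of NMDA-type glutamate receptors, was injected 1 h ahead of every session. The 4 groups, sham and HF-HI under saline and sham and HF-HI under memantine, had 10 libraries each, and the design asked what impact did to transcription and whether memantine altered it. The labels gave neither a sequencing batch nor the animal behind each library, so p-values here measure only the spread between these libraries. The reads summed per library ran from 13322404 to 17529644. Values below are normalised read counts, that is, reads per transcript divided by the size factor of the library, and changes are log2 changes of those counts with their standard error (SE).

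Metabotropic glutamate receptors are G protein-coupled receptors that tune synapses slowly. Those of group I, such as Grm5, act through Gq and phospholipase C, mostly at the edge of the postsynaptic site, and those of groups II and III, among them Grm2, Grm3 and Grm7, act through Gi to lower cyclic AMP and transmitter release. Kainate receptors are glutamate-gated channels built from subunits: Grik2 and Grik3 encode primary subunits that form channels on their own, while Grik5 encodes a high-affinity subunit that needs a primary partner.

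Grm5 was present as a pair of transcripts that differ by 1 internal exon. They also differ outside it, with annotated last exons of 1674 bases (with the internal exon) and 4927 bases (without it). The pair is shown because its balance varied more between libraries than any other feature of the members. The internal exon lies in Grm5 at chr7:88116193-88116288 (GRCm38, the same assembly as mm10, plus strand). It is coding, it is exon 8 of 9 in the annotated transcript, and its 96 bases keep the reading frame. It lies in the part that encodes the intracellular tail of the receptor. The exon is in capitals, and the 30 bases on either side of it in the spliced transcript are in lower case.
Grm5 NM_001143834, with the exon: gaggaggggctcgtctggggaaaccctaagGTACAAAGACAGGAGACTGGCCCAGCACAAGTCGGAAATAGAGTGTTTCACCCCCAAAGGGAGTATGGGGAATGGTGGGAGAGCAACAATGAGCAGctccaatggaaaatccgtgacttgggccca
Grm5 NM_001081414, without the exon: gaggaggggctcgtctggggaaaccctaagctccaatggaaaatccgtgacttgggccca

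The genes lie apart in the genome (GRCm38.p6): Grm3 at chr5:9485236-9725352, Grm5 at chr7:87583981-88135063, Grm7 at chr6:110645349-111567230, Grik2 at chr10:49093680-49790161, Grik3 at chr4:125490259-125714173 and Grik5 at chr7:25009849-25075694.

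Per kilobase of transcript, Grm5 had the highest level among the members and Grik2 the lowest. In saline sham, the level in normalised read counts per kilobase was 1764 ± 220 for Grm5 and 1189 ± 68.7 for Grm3 (mean ± SD, n = 10), the metabotropic receptor of astrocytes as well as neurons. It was 573 ± 94.2 for Grik5 and 499 ± 50.1 for the longer-known Grm7 transcript, NM_177328. Grm7 encodes a low-affinity receptor of the presynaptic active zone. It was 283 ± 15.6 for Grik3 and 216 ± 31.3 for Grik2. The same order of means was seen in all 4 groups. Grik5 and Grm7 could not be told apart by it in saline sham, where Grik5 was above Grm7 in only 6 of 10 libraries, against 7 in HF-HI under saline, and 9 in sham and 8 in HF-HI under memantine. Every other gene exceeded its lower neighbour in 9 or 10 of the 10 libraries of each group. Lengths were those of the GENCODE transcripts paired with each RefSeq entry. The other Grm7 transcript, NM_001346640, had no such pair and was left out of this order. It held a median of 23.1% of the Grm7 reads in saline sham, so the Grm7 level is understated and its place under Grik5 is not settled. The level of Grm5 moves with how reads were divided between its transcripts, which differ in length (8047 and 4500 bases).

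Impact did not move any of these transcripts past the test in saline-treated mice. With saline HF-HI set against saline sham, 0 of the 8 member transcripts had an unadjusted p-value under 0.05 in the limma test, against 9.53% of all transcripts, and 0 of the 6 gene sums did, against 10.7% of all symbols. The sums of Grm3, Grik2, Grik3 and Grik5, which have 1 transcript each in the table, hold the same counts as that transcript. Grm3 ran from 3306 to 3926 counts in saline sham (median 3590) and from 3417 to 4033 in saline HF-HI (median 3561). The groups overlapped almost wholly, and the log2 change of Grm3 was 0.02 ± 0.04 (limma, p = 0.611, adjusted p = 0.917).

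The 2 Grm7 transcripts together ran from 2588 to 2866 counts in saline sham (median 2756) and from 2598 to 2831 in saline HF-HI (median 2740). This was one of the steadiest sums in the table: its coefficient of variation over all 40 libraries was 3.92%, rank 5400 of 5849 symbols from the most variable, where the median symbol had 6.65%. The log2 change of the Grm7 sum was -0.01 ± 0.03 (limma, p = 0.581).

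The Grm5 sum ran from 8673 to 9819 counts in saline sham (median 9114) and from 7966 to 10166 in saline HF-HI (median 8336). Of the impacted libraries, 7 of 10 lay below the saline sham mean, but the ranges overlapped and the log2 change of -0.08 ± 0.07 did not pass (limma, p = 0.288, adjusted p = 0.775). The fit takes a common spread from all 4 groups, and memantine sham replicate 5 had a far lower Grm5 sum than the rest of its group. Without that library the log2 change was the same (limma, p = 0.0655). The two-sided permutation test of saline HF-HI against saline sham gave p = 0.0908. Markers of striatum, a region beneath the cortex in which Grm5 is abundant, were lower in the same comparison: 11 of 29 striatal transcripts were lower at an unadjusted p under 0.05 and 0 were higher, where 4.95% of all transcripts were lower and 4.58% higher, and their summed level ran from 54170 to 82852 counts in saline sham and from 55467 to 67644 in saline HF-HI. With the striatal marker mean as a covariate, the log2 change of the Grm5 sum in this comparison was 0.01 (limma, p = 0.847). Within groups, the Grm5 sum followed that mean with r = 0.46 over 40 libraries, which share depth and dissection. Striatal markers did not stand alone. Of 10 inhibitory neuron transcripts, 5 were lower and 1 higher in saline HF-HI against saline sham at a limma unadjusted p under 0.05. The Grm5 sum followed the inhibitory marker mean with r = 0.39 within groups, and a fit with that mean as a covariate was not made. In such bulk RNA, fewer cells of a type and less RNA per cell cannot be told apart.

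**Figure D1:**
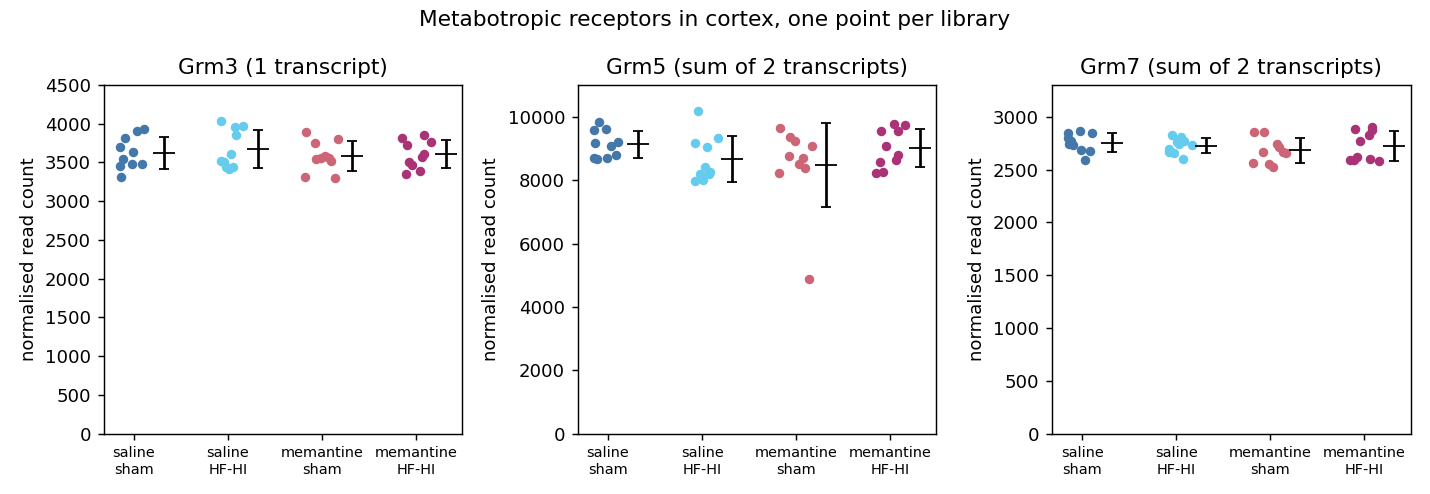
Normalised read counts (vertical axes, from 0) of Grm3, of the Grm5 sum and of the Grm7 sum in the 4 groups; each point is a library and bars are the mean ± SD of 10. The groups overlap for each gene, and 1 memantine sham library lies at 4891 counts of Grm5, far under the others.

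The kainate subunits also overlapped between saline sham and saline HF-HI. Grik2 ran from 1596 to 2507 counts in saline sham (median 2088) and from 1905 to 2472 in saline HF-HI (median 2077). Grik3 ran from 2319 to 2743 (median 2568) and from 2335 to 2725 (median 2520). Grik5 ran from 1716 to 2710 (median 2080) and from 1732 to 2429 (median 1953). Of the 3, Grik5 had the largest difference, with 8 of 10 impacted libraries below the sham mean, and its log2 change was -0.10 ± 0.09 (limma, p = 0.278, adjusted p = 0.810).

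Under memantine, impact again moved none of the members past the test. In memantine HF-HI against memantine sham, 0 of 8 transcripts had a limma unadjusted p under 0.05, against 4.61% of all transcripts, and 0 of 6 gene sums, against 4.38%. The log2 change was 0.01 ± 0.04 for Grm3, -0.01 ± 0.09 for Grik2, -0.04 ± 0.04 for Grik3 and -0.13 ± 0.09 for Grik5, where 9 of 10 impacted libraries lay below the memantine sham mean (limma, p = 0.138, adjusted p = 0.967). The Grm5 sum had a log2 change of 0.11 ± 0.07 (limma, p = 0.140). That value rested on memantine sham replicate 5, in which the Grm5 sum was 4891 counts, while the median of its group was 8726. Without this library the log2 change was 0.02 (limma, p = 0.610). The difference between the impact responses under memantine and under saline, tested as the interaction of impact and drug, had an unadjusted p under 0.05 for 0 of the 8 transcripts, against 3.73% of all transcripts, and for 0 of the 6 gene sums, against 3.59%. For the Grm5 sum the interaction was 0.18 ± 0.10 (limma, p = 0.0752), and 0.10 without memantine sham replicate 5 (p = 0.0991). It was -0.02 ± 0.06 for Grik3 and -0.03 ± 0.13 for Grik5.

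The members that passed the test were Grik3 and Grik5, both higher with memantine in sham mice. In memantine sham against saline sham, 2 of 8 member transcripts had a limma unadjusted p under 0.05, both higher, against 7.51% of all transcripts in either direction and 3.67% higher. Among the gene sums, 2 of 6 were called, against 7.9% of all symbols. These were the sums of Grik3 and Grik5, which hold the same counts as their only transcripts, so they repeat the transcript calls. Grik3 and Grik5 also moved together within groups (r = 0.81), so their calls are not independent of each other. Neither transcript held after adjustment over all 6831. In limma, 0 of the 8 had an adjusted p under 0.1 in any comparison, where 0.205% of all transcripts did for impact under saline, 0.0146% for impact under memantine, 0.0293% for memantine in sham mice, and 0% for memantine in impacted mice and for the interaction.

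Grik3 ran from 2319 to 2743 counts in saline sham and from 2427 to 3185 in memantine sham (median 2694). The ranges overlapped, and 8 of 10 memantine libraries lay above the saline sham mean. The log2 change was 0.11 ± 0.04, a 1.08-fold difference of geometric means (limma, p = 0.0166, adjusted p = 0.604), and the two-sided permutation test with 100000 resamples gave p = 0.0381.

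Grik5 ran from 1716 to 2710 counts in saline sham and from 1899 to 3295 in memantine sham (median 2318). Again the ranges overlapped, with 8 of 10 memantine libraries above the saline sham mean. The log2 change was 0.20 ± 0.09, a 1.15-fold difference (limma, p = 0.0373, adjusted p = 0.636), while the permutation test gave p = 0.0891. The Grik5 call was lost when any 1 of 8 libraries was left out (saline sham replicates 1, 3, 4, 6 and 8, and memantine sham replicates 4, 7 and 10), with a highest p of 0.104, and that of Grik3 was lost without memantine sham replicate 4 (p = 0.0504).

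**Figure D2:**
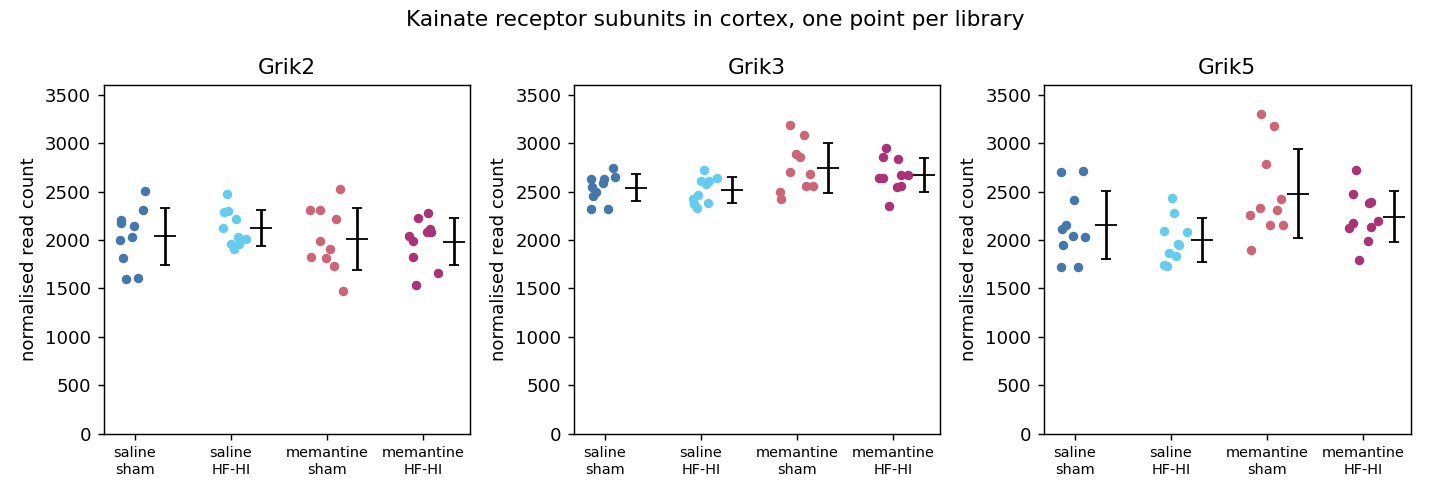
Normalised read counts (vertical axes, from 0) of the kainate subunit transcripts in the 4 groups; each point is a library and bars are the mean ± SD of 10. Grik3 and Grik5 have higher means in the memantine groups than in the saline groups, with overlapping ranges, and the Grik2 medians lie between 1948 and 2088.

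The same direction was seen among impacted mice. Between memantine HF-HI and saline HF-HI, 0 of 8 member transcripts had a limma unadjusted p under 0.05, against 3.91% of all transcripts, and 0 of 6 gene sums, against 3.62%, but the smallest p was that of Grik3. Grik3 ran from 2346 to 2948 counts in memantine HF-HI (median 2656), and 9 of 10 libraries lay above the saline HF-HI mean. Its log2 change was 0.09 ± 0.04 (limma, p = 0.0538, adjusted p = 1.00, permutation p = 0.0376). Grik5 ran from 1790 to 2717 counts (median 2184), with 8 of 10 libraries above the saline HF-HI mean and a log2 change of 0.16 ± 0.09 (limma, p = 0.0893, permutation p = 0.0406). Grik2, the other primary subunit, ran from 1532 to 2283 counts in memantine HF-HI and had a log2 change of -0.11 ± 0.09 (limma, p = 0.226), with 8 of 10 libraries below the saline HF-HI mean.

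No metabotropic member passed in either drug comparison. Grm3 ran from 3303 to 3897 counts in memantine sham (median 3560) and from 3349 to 3857 in memantine HF-HI (median 3591). Both ranges overlapped those of the saline groups over most of their length, and the log2 difference from saline was -0.02 ± 0.04 in sham mice (limma, p = 0.670) and -0.03 ± 0.04 in impacted mice (p = 0.488). The Grm7 sum ran from 2520 to 2859 counts in memantine sham (median 2666) and from 2585 to 2899 in memantine HF-HI (median 2690), with log2 differences from saline of -0.04 ± 0.03 (limma, p = 0.135) and -0.0034 ± 0.03 (p = 0.897). The Grm5 sum ran from 4891 to 9630 counts in memantine sham and from 8236 to 9756 in memantine HF-HI (median 8927). Its log2 difference from saline sham, -0.13 ± 0.07 (limma, p = 0.0799), was -0.04 (p = 0.318) without memantine sham replicate 5, and that from saline HF-HI was 0.06 ± 0.07 (p = 0.436).

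The drug contrasts in sham and in impacted mice share no library, but their limma p-values use a common estimate of the spread. Their average was added after both had been seen. In memantine against saline over sham and HF-HI together, Grik3 was higher by 0.10 ± 0.03 (limma, p = 0.00294, adjusted p = 0.464) and Grik5 by 0.18 ± 0.06 (p = 0.00888, adjusted p = 0.476), and the other 6 member transcripts had p-values from 0.132 to 0.933. Thus 2 of 8 were called, against 8.11% of all transcripts in either direction and 3.97% higher. The 2 called transcripts moved together within groups (r = 0.81), so they are not independent calls. When each of the 40 libraries was left out in turn, the p of Grik3 stayed between 0.000938 and 0.00579 and that of Grik5 between 0.00337 and 0.0172. The smallest adjusted p in those fits was 0.236 for Grik3 and 0.333 for Grik5. The average of the impact contrasts over saline and memantine, by the same fit, called 0 of 8, against 9.66% of all transcripts, and the smallest p was that of Grik5 (-0.12 ± 0.06, p = 0.0721, adjusted p = 0.551).

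**Figure D3:**
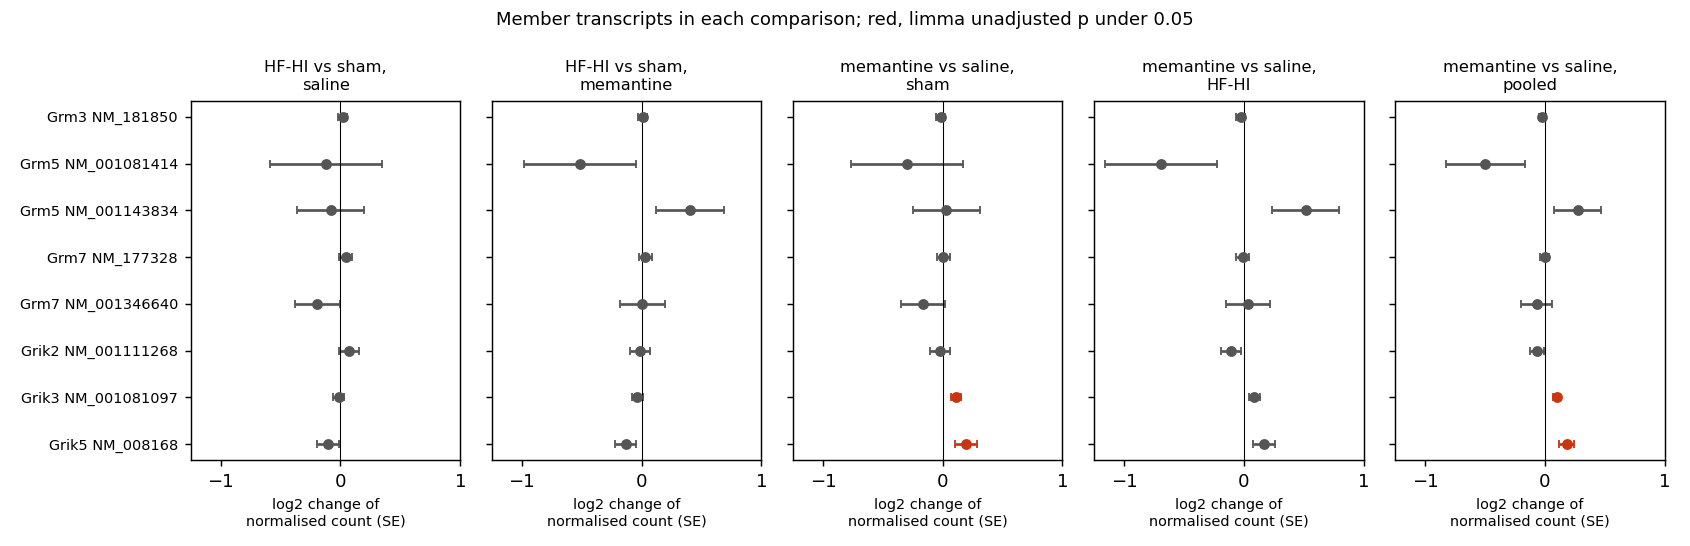
Log2 change of the normalised count (horizontal axes) of the 8 member transcripts in the 4 pairwise comparisons and in the averaged drug comparison; points are estimates, bars are ± SE, and red marks a limma unadjusted p under 0.05. Grik3 and Grik5 lie to the right of 0 in each drug panel, and the Grm5 transcripts have the widest bars.

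Subunit ratios within the kainate family gave no call. The log2 ratio of Grik5 to Grik2 plus Grik3 had a median of -1.15 in sham and -1.20 in HF-HI under saline, and of -1.07 in sham and -1.11 in HF-HI under memantine. It was higher in memantine HF-HI than in saline HF-HI by 0.16 ± 0.08 (permutation p = 0.0566, adjusted p = 0.258 over 8 tests) and in memantine sham than in saline sham by 0.14 ± 0.09 (permutation p = 0.128, adjusted p = 0.258). The log2 ratio of Grik3 to Grik2, added after the values had been seen, differed by 0.19 ± 0.10 between the impacted groups (permutation p = 0.0661, adjusted p = 0.258). The planned ratio of Grm3 to Grm2 could not be formed.

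Grik3 and Grik5 also rose and fell together from library to library within groups. After subtraction of group means, their log2 counts had r = 0.81 (Spearman's rho 0.75) over the 40 libraries. The next largest r in size among pairs of members was -0.38 (rho -0.40), for Grm3 with Grik2. This is a description of libraries that share depth and composition. The genes most like Grik5 by the same measure were Aplp1 (r = 0.93), Ski (0.92) and Crtc1 (0.92), and those most like Grik3 were Ttbk1 (0.85), Kmt2d (0.85) and Agap2 (0.84). The other members had other neighbours: Dpy19l1 for Grm3 (0.80), Mib2 for Grm5 (0.81), Srsf4 for Grm7 (0.61) and Ttr for Grik2 (0.64).

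The shared movement of Grik3 and Grik5 went with the base composition of transcripts. Grik5 has a GC content of 62.3%, above 98.9% of the transcripts with a known sequence, and Grik3 has 54.2%, above 76.8%, while Grik2 has 37.9%. For each library, the log2 counts of all transcripts relative to their mean over libraries were regressed on GC content. Within groups, that slope had r = 0.81 with Grik5, 0.64 with Grik3 and -0.11 with Grik2. Its median, in log2 units per 10 points of GC, was -0.00512 in saline sham, 0.0177 in memantine sham, -0.00866 in saline HF-HI and -0.0142 in memantine HF-HI. The group means were 0.000351, 0.0216, -0.0178 and -0.00416 in that order, so that the impacted groups stood in the opposite order by mean and by median, and the SD within groups was 0.0529 to 0.0706. With the slope as a covariate, the averaged drug difference was 0.08 ± 0.02 for Grik3 (limma, p = 0.00206, adjusted p = 0.330) and 0.13 ± 0.04 for Grik5 (p = 0.00188, adjusted p = 0.330), so both differences were smaller and their calls remained. With the slope in the fit, the drug comparison among impacted mice had 3 of 8 transcripts under 0.05 (Grik3, p = 0.0386; Grik5, p = 0.0322; Grm5 NM_001143834, p = 0.0415), against 4.74% of all transcripts.

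**Figure D4:**
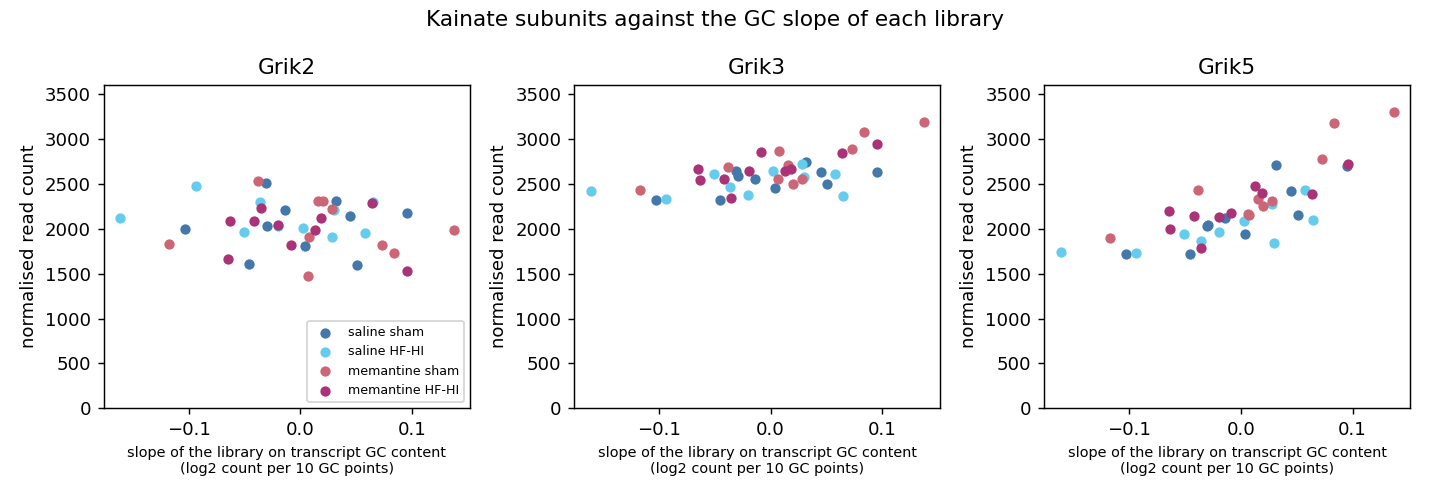
Normalised read counts (vertical axes, from 0) of Grik2, Grik3 and Grik5 against the slope of each library's log2 counts on transcript GC content (horizontal axes, log2 count per 10 points of GC); each of the 40 points is a library, coloured by group. Grik5 and, less steeply, Grik3 rise along the axis (within-group r = 0.81 and 0.64) and Grik2 does not (r = -0.11).

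Markers of excitatory neurons moved with the kainate pair as well. Within groups, their mean had r = 0.60 with Grik5 and 0.46 with Grik3. The summed level of the 10 marker transcripts ran from 40851 to 57723 counts in saline sham (median 47601) and from 45437 to 61092 in memantine sham (median 51040). In the impacted groups its mean was 49824 under saline and 49863 under memantine. The median log2 change of the marker transcripts for memantine in impacted mice was -0.03. With the marker mean as a covariate, neither Grik3 (limma, p = 0.0827) nor Grik5 (p = 0.219) passed in memantine sham against saline sham, while both passed among impacted mice (p = 0.0220 and 0.0197) and in the averaged drug comparison (p = 0.00521 and 0.0129). With the striatal marker mean as the covariate instead, neither passed among impacted mice (limma, p = 0.169 for Grik3 and 0.230 for Grik5). Both then passed in memantine sham against saline sham (p = 0.0143 and 0.0351) and in the averaged drug comparison (p = 0.00841 and 0.0221).

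The Grm5 transcripts exchanged with each other while their sum held. The transcript without the exon, NM_001081414, had between 6.44% and 22.2% of the Grm5 reads in 32 libraries and between 58.4% and 78.3% in the other 8, with no library between 22.2% and 58.4%. The high shares were found in 3 sham and 3 HF-HI libraries under saline, and in 2 sham and 0 HF-HI libraries under memantine. Over the 40 libraries, the counts of the 2 transcripts had r = -0.92 (Spearman's rho -0.61). Their coefficients of variation were 98.9% for NM_001081414 (rank 31 of 6831 transcripts) and 32.4% for NM_001143834, against 9.67% for the sum. Among the 718 genes with at least 2 transcripts in the table, Grm5 ranked 35 by the spread of its transcript shares (SD 23.1 percentage points, median gene 8.78).

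In saline sham the share of NM_001081414 ran from 9.68% to 78.3% (median 13.03%), in saline HF-HI from 6.44% to 70.4% (median 13.7%), in memantine sham from 9.31% to 69.7% (median 14.1%) and in memantine HF-HI from 8.19% to 22.2% (median 11.2%). The mean share was lower in memantine HF-HI than in saline HF-HI by 17.1 percentage points and than in memantine sham by 11.8, and neither difference passed (permutation p = 0.118 and 0.132, adjusted p = 0.526 for both over 8 tests). Of the transcript without the exon, 54.7% of the annotated length is shared with the other, and of the transcript with the exon 97.9% is shared, so only the 96-base exon tells the latter apart. The transcript without the exon also has sequence of its own, with an annotated last exon of 4927 bases against 1674. Its share therefore does not measure the exon alone. Which of the deposited shares follow from splicing and which from the division of shared reads by the counting model was not tested.

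**Figure D5:**
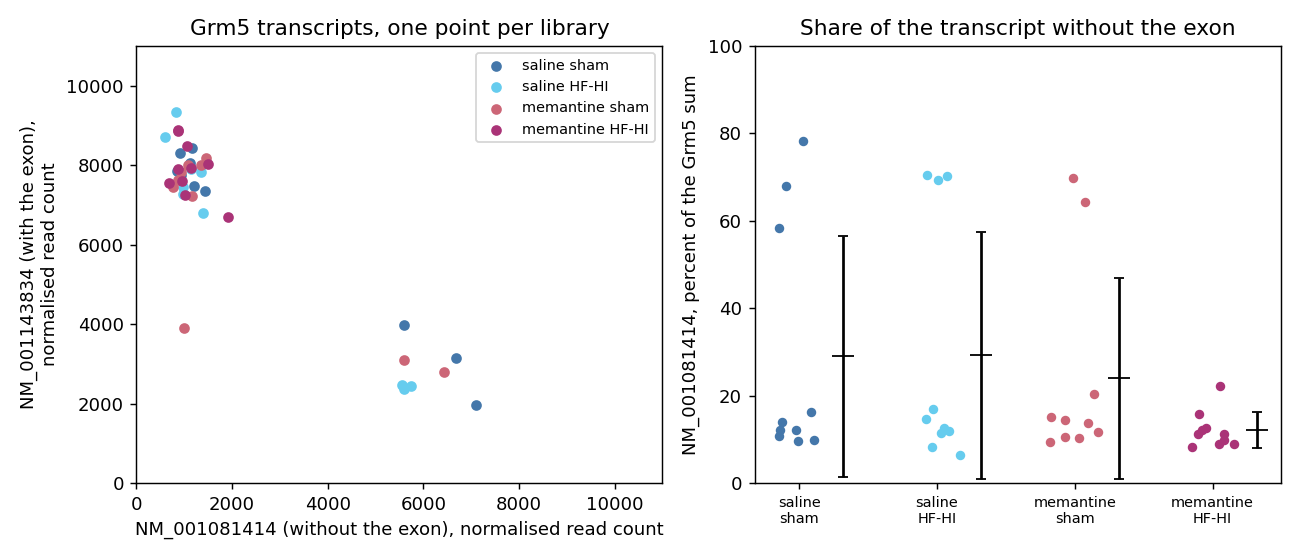
Left, normalised read counts of the Grm5 transcript with the exon (vertical axis) against the one without it (horizontal axis), 1 point per library; right, the share of the latter in the Grm5 sum in percent, by group, with bars for the mean ± SD of 10. A set of 8 libraries stands apart with shares of 58.4% to 78.3%, and none of them is a memantine HF-HI library.

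The Grm7 transcripts were divided more evenly across libraries. NM_001346640 had 12.1% to 35.4% of the Grm7 reads in saline sham (median 23.1%), 13.1% to 31.9% in saline HF-HI (median 19.2%), 12.4% to 29.1% in memantine sham (median 23.0%) and 13.8% to 28.3% in memantine HF-HI (median 21.6%). The largest of the 4 differences, -2.98 percentage points in saline HF-HI against saline sham, did not pass (permutation p = 0.325, adjusted p = 0.865).

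Neto1 and Neto2, which encode auxiliary subunits of kainate receptors, gave 0 calls in each comparison. The smallest p of the pair was that of Neto1 for memantine in impacted mice (log2 change 0.08 ± 0.04, limma p = 0.0739).

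Among scaffold partners of the metabotropic receptors, 3 of 22 transcripts were lower and 0 higher in saline HF-HI against saline sham at a limma unadjusted p under 0.05, where 4.95% of all transcripts were lower and 4.58% higher. They were Homer1 NM_001284189 and those of Dlgap2 and Dlgap3, which encode postsynaptic scaffold proteins. Homer1, whose product binds the tail of group I receptors, ran from 813 to 1495 counts for this transcript in saline sham (median 1085), from 204 to 1258 in saline HF-HI (median 719), from 235 to 1310 in memantine sham (median 722) and from 476 to 1268 in memantine HF-HI (median 680). The saline sham group was the high one, and the log2 change was -0.82 in saline HF-HI (limma, p = 0.00955, adjusted p = 0.368) and -0.84 in memantine sham (p = 0.00926, adjusted p = 0.554), contrasts that share the saline sham libraries. The sum of the 4 Homer1 transcripts had a log2 change of -0.04 ± 0.08 in saline HF-HI (limma, p = 0.600).

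Downstream of group I receptors, 2 of 28 Gq pathway transcripts were higher (Camk2a and Camk2g, calcium/calmodulin-dependent kinases) and 2 lower (Dgkb, a diacylglycerol kinase, and Prkce, a protein kinase C) with impact under saline, where 4.58% of all transcripts were higher and 4.95% lower. Downstream of groups II and III, 4 of 38 Gi pathway transcripts were higher and 4 lower in the same comparison. Among the lower ones, Adcy5 and Gng7 were also counted among the lower striatal markers. Gnai1, a Gi alpha subunit, had a log2 change of 0.07 (limma, p = 0.00558, adjusted p = 0.308), and Adcy5, the main adenylyl cyclase of striatum, one of -0.23 (p = 0.00745, adjusted p = 0.340). Median log2 changes were -0.0046 for the Gq list and -0.03 for the Gi list, against 0.00021 over all transcripts. In memantine sham against saline sham, the Gq list had 1 higher and 1 lower, the Gi list 1 higher and 1 lower, and the scaffold list 2 higher (Homer2 and Shank3) and 1 lower (Homer1), where 3.67% of all transcripts were higher and 3.84% lower.

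The kainate partner list held 17 of its 18 symbols, with 25 transcripts. With impact under saline 1 was higher (Dlg3, a scaffold protein) and 1 lower (Cdh2, N-cadherin), a share close to the 4.58% higher and 4.95% lower among all transcripts. The direction of both was opposite for memantine in impacted mice, a contrast that shares the saline HF-HI libraries. In memantine sham against saline sham 0 of the 25 passed the limma unadjusted p under 0.05. Genes of receptor desensitisation had 0 higher and 1 lower of 11 in saline HF-HI and the same in memantine sham, where 4.95% and 3.84% of all transcripts were lower. In both it was Ppp1ca, a protein phosphatase catalytic subunit, and the contrasts share the saline sham libraries, whose mean of 3066 counts was the highest of the 4 groups (2920 in saline HF-HI, 2885 in memantine sham, 2908 in memantine HF-HI).

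Among genes that handle glutamate itself, 4 of 19 transcripts were higher and 1 lower with impact under saline, where 4.58% of all transcripts were higher and 4.95% lower. The smallest p was that of Slc7a11, the cystine/glutamate exchanger that releases glutamate from astrocytes. Under saline it had 1684 ± 81.7 counts in sham and 1889 ± 109 in HF-HI, and under memantine 1675 ± 151 and 1807 ± 124 (mean ± SD, n = 10). The log2 change with impact was 0.16 under saline (limma, p = 0.000501, adjusted p = 0.142) and 0.11 under memantine (p = 0.0158, adjusted p = 0.967). Got2, Slc38a1 and Glul, which encode enzymes and a transporter of the glutamate and glutamine cycle, were the others that were higher, and Slc1a1, a neuronal glutamate transporter, was lower. Of 31 astrocyte marker transcripts, 3 were higher and 0 lower in that comparison: Gfap (log2 change 0.29, limma p = 0.0111, adjusted p = 0.374), Sparcl1 (0.10, p = 0.00277, adjusted p = 0.250) and Glul, which is on both lists. The astrocyte list as a whole was not higher, with a median log2 change of -0.02 against 0.00021 over all transcripts. The summed level of the astrocyte markers ran from 242575 to 263659 counts in saline sham and from 256823 to 268347 in saline HF-HI, and their part in the glutamate-handling values was not tested.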

How the data were processed

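The authors sequenced ribosomal RNA-depleted, stranded libraries of total RNA in pairs. The study's methods name STAR and eXpress, with counts per RefSeq transcript, while the submitters' processing notes name HISAT2 and StringTie, both on mm10. The authors applied the variance-stabilising transformation of DESeq2, so each deposited value is a log2-like number. The transformation was inverted with its floor of 10.36. In every library 100% of values under 5000 counts were then whole reads (tolerance 0.05 reads), and these were 92.4% of all values. Counting error alone gives 1 library at the saline sham mean of Grik5 a coefficient of variation of 2.15%.

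The deposited values of all transcripts, and log2(summed count + 1) of all symbols, were fitted with limma 3.58.1 (R 4.3.3, group means, trended prior, Benjamini-Hochberg adjustment), as tested on simulated data. Log2 changes of counts came from the same model on log2(count + 1). Shares and ratios were compared with two-sided permutation tests of 100000 resamples. All members, their relatives, at most 4 transcripts a list and comparison by smallest p, and the most alike genes were named. The members and lists were chosen with earlier results of these data known. Alternatives were other scales, scalings, filters, variance priors and weights, fits of 2 groups, a replicate block, marker and GC covariates, and leaving out each library. Sequences and lengths came from GENCODE M21 (GRCm38), matched by RefSeq identifier for 7 of the 8 transcripts, and symbols from RefSeq. Some results are not reported here.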

Additional observations from a re-analysis of the deposited data

Results flagged for a closer look

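The Grm5 sum of memantine sham replicate 5 was 4891 normalised read counts, the lowest of its group by a gap that took 0.703 of the whole range of the group, above Dixon's critical value for 10 samples. It held 996 counts of the transcript without the exon and 3894 of the transcript with it, a share of 20.4% for the former. The rule was applied to 56 groups of values and chance flags about 1 in 20.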

How the results depend on the processing

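No member transcript had an adjusted p under 0.1 in any of the 5 comparisons under any alternative. At an unadjusted p under 0.05, memantine HF-HI against saline HF-HI moved from 0 transcripts to 1 after centring libraries on their medians, under quantile normalisation and with the replicate block (Grik3 each time), to 2 in the fit of these groups alone and with the excitatory marker covariate (Grik3 and Grik5), and to 3 with the GC slope. Its gene sums moved from 0 to 1 under quantile normalisation and with the replicate block (Grik3), and to 2 in the fit of these groups alone and with either added covariate. For Grik3 and Grik5 the gene sum holds the same counts as the transcript, so its calls are not a separate result. Memantine sham against saline sham fell from 2 transcripts and 2 gene sums to 1 in the fit of its groups alone (Grik3) and to 0 with the excitatory marker covariate. That covariate gave 1 call in saline HF-HI against saline sham (Grik5, p = 0.0236). Memantine HF-HI against memantine sham gave 1 transcript in the fit of its groups alone (Grm5 NM_001143834) and 1 gene sum with the striatal covariate (Grm5, p = 0.0420), and the interaction gave 1 gene sum with library weights (Grm5, p = 0.0493). The causes were not tested. The fit of 2 groups alone gives no interaction. The GC and excitatory covariates, the averaged drug comparison and the Grik3 to Grik2 ratio were chosen after seeing the data.

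When each library was left out, memantine HF-HI against saline HF-HI gave 0 to 2 transcripts (Grik3 in 10 of 40 fits, Grik5 in 2, Grm5 NM_001143834 in 2; without memantine sham replicates 4, 9 and 10, saline HF-HI 1, 2, 4, 5 and 6, or memantine HF-HI 1, 6 and 8) and 0 to 2 gene sums. Those gene sums also passed without saline sham replicates 1, 4 and 9, memantine sham 1 and saline HF-HI 8, and did not without saline HF-HI 1. Memantine sham against saline sham gave 0 to 2 transcripts and 0 to 3 gene sums, the third being Grm5 without memantine sham replicate 9 (p = 0.0435). The interaction gave 0 to 1 gene sums (Grm5, without memantine sham replicate 9 or saline HF-HI 1). The averaged drug comparison gave Grik3 and Grik5 under each of its alternatives. Of 2506 other alternative values for single transcripts, shares and ratios, 2467 kept their side of 0.05, 12 lost it and 27 gained it, and the 99 changes of sign were all of values with p at or above 0.05.

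The labels number replicates 1 to 10 in each group. Residuals of equally numbered libraries had correlations from -0.130 to 0.160 over 60 pairs, with 4 over 0.1 and 6 libraries best matched to their own number, so the numbers were not taken to pair samples. The replicate block gave 656 calls over all transcripts in saline HF-HI against saline sham, where the fit without it gave 651. With the block, the Grik3 to Grik2 ratio passed for memantine in impacted mice (p = 0.0273, exact sign-flip permutation).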
